A study of Homo sapiens and Mus musculus with 8 samples.

Results

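Caveolae are small flask-shaped pits of the plasma membrane that buffer membrane tension, sort lipids and signalling proteins, and take part in the repair of a damaged membrane. Their coat is built from caveolins, which insert into the inner leaflet as oligomers, and from cavins, which assemble on them from the cytosol. EHD ATPases encircle the neck, and PACSIN (syndapin) F-BAR proteins help to bend the membrane there. The 10 genes described here are the caveolins CAV1 and CAV2, the cavins CAVIN1, CAVIN2 and CAVIN3, the ATPases EHD1, EHD2 and EHD4, and the F-BAR genes PACSIN2 and PACSIN3, chosen by name from the 58381 genes of a count table. Levels of all 10 were measured as RNA in OVCAR-8, a human line from ovarian cancer. sgATG9A cells carried a Cas9 guide against ATG9A, a lipid scramblase of autophagy vesicles, and sgGAL4 cells a control guide against a yeast gene. Both guides were brought in with the same lentiviral vector, so sgGAL4 cells carry Cas9 and the virus too, and whether either population is a pool or a clone is not stated. Each group has 2 libraries, grown in the same medium, and the 2 libraries of a group are the only measure of error. The mouse immune cells that the series also holds, from tumors of another line, were not used.

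The coat genes were well covered. The 4 libraries held 22200998 to 22969233 counts, of which a single coat gene took between 293 and 15880, and all 10 genes were among the 16141 that passed the filter on low counts. Levels are given as CPM, counts per 1000000 of the TMM-normalized library total, and fold changes are sgATG9A over sgGAL4 on the log2 scale, with standard errors (SE), 95% intervals and Benjamini-Hochberg adjusted p-values over all 16141 genes from the quasi-likelihood test of edgeR. ATG9A itself had 289 and 261 counts in the sgATG9A libraries, against 457 and 419 in the sgGAL4 libraries, and was called lower (log2 fold change -0.68, SE 0.10, adjusted p = 4.22e-05 from edgeR). The epithelial and ovarian genes EPCAM, PAX8 and MSLN were present, KRT19 was at 0, MUC16 had at most 2 counts, KRT8 and KRT18 were called lower and PAX8 higher, and the 9 genes of that list summed to 2001 and 2016 CPM in sgATG9A cells, against 3169 and 3089 CPM in sgGAL4 cells. Among 5 fibroblast genes, a cell type rich in caveolae, COL1A1 and PDGFRB were called lower, DCN was at 0, COL1A2 had at most 2 counts, and the sum was 257 and 264 CPM in sgATG9A cells, against 430 and 470 CPM in sgGAL4 cells. The sums of 5 endothelial, 4 muscle, 4 adipocyte and 7 macrophage genes stayed at or below 10.4 CPM in every library, with PTPRC, TYROBP, CD163, ADIPOQ and MYH7 at 0. Of these low genes KDR, DES, ACTC1 and CD14 were called lower (log2 fold changes -0.85, -0.81, -0.67 and -2.58) and none higher. CD14 was near the floor, with 6 and 1 counts in the sgATG9A libraries, against 23 and 20 in the sgGAL4 libraries. Over all 16141 genes tested, 7.42% were called lower and 8.93% higher, shares to be read beside the calls of these marker lists. Summed levels were 5.74 and 5.76 CPM in sgATG9A cells, against 10.4 and 8.67 CPM in sgGAL4 cells, for muscle genes, and 2.08 and 2.81 CPM in sgATG9A cells, against 4.10 and 4.18 CPM in sgGAL4 cells, for endothelial genes. Macrophage genes summed to 0.883 and 0.352 CPM in sgATG9A cells, against 1.52 and 1.54 CPM in sgGAL4 cells, and adipocyte genes to 0.751 and 0.923 CPM in sgATG9A cells, against 0.402 and 0.484 CPM in sgGAL4 cells. In bulk RNA of a cell line, fewer cells expressing a gene and less of its RNA per cell cannot be told apart. Whether these markers and the coat genes have a common source was not tested.

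Promoters are shown for the gene that differed most (CAVIN2), for the adjacent caveolin genes, of which only CAV1 was called, and for EHD2. They come from RefSeq on GRCh38.p14, run 5′ to 3′ on the strand of the gene from 250 bases before to 50 after the most upstream start listed, and were found for 7 of the 10 genes. Capitals mark matches, on either strand, to the searched motifs, which were GGGCGG (the GC box bound by SP1), GGAATG (the TEAD motif), CCAAT (the motif of the factor NF-Y), TATAAA (the TATA box), TGANTCA (the AP-1 motif), the CArG box and the NF-kB motif. The CAVIN2 promoter lies on the minus strand at chr2:191847039-191847338, CAV1 on the plus strand at chr7:116524759-116525058, CAV2 on the plus strand at chr7:116499488-116499787, and EHD2 on the plus strand at chr19:47713172-47713471. For CAV2 this start lies inside the gene as GENCODE draws it, since that annotation has a longer upstream transcript.
CAVIN2: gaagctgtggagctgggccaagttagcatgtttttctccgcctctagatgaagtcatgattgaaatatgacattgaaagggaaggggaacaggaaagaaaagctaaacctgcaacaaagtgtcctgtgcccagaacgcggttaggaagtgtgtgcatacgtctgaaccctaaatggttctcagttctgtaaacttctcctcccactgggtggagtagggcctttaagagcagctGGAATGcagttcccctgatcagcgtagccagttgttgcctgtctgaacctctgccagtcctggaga
CAV1: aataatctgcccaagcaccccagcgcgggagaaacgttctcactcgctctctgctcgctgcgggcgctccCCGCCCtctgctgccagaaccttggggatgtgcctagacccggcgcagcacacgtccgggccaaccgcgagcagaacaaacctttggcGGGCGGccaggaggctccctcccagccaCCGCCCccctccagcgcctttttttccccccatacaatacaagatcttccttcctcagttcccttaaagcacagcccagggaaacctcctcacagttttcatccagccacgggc
CAV2: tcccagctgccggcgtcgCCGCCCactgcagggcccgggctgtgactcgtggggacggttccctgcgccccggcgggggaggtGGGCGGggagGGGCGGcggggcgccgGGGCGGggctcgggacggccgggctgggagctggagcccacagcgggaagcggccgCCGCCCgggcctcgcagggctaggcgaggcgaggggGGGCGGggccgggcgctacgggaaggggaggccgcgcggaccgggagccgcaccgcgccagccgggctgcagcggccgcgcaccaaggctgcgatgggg
EHD2: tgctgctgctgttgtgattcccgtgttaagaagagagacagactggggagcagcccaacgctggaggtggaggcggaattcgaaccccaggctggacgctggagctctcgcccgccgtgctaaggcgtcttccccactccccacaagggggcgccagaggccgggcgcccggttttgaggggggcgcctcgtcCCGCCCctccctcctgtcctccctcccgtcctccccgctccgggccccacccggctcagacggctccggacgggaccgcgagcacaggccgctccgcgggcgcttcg

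The CAVIN2 promoter was the poorest in G and C of these 4, at 49.3%, with a single GGAATG beginning 16 bases before the start and no match to the other motifs. GGAATG occurs in 14% of the 35116 promoters of the table, whose median GC content is 58.7%. PACSIN2, whose RNA was not called, also had GGAATG before some of its listed starts, though not before the most upstream. GGGCGG, found in 45% of promoters, had 3 matches before the CAV1 start, 6 before the CAV2 start, where GC content reached 82.7%, and 1 before the EHD2 start. Among the 7 genes with a promoter entry, CAVIN2 was the one without GGGCGG at any listed start. These are matches of letters and not measured binding sites.

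Of the 10 coat genes, 5 were called lower in sgATG9A cells at an adjusted p under 0.05 (CAV1, CAVIN1, CAVIN2, EHD1 and EHD2) and 0 higher, where 7.42% of all 16141 genes tested were lower and 8.93% higher. None of the 10 was higher at an unadjusted p under 0.05 either, and DESeq2 called the same 5 lower and 0 higher. Among the 7128 genes at or above the mean level of CAVIN3, the lowest coat gene as counted, 9.68% were lower and 13.5% higher. The median log2 fold change of the 10 was -0.17, against a median of -0.002 over all genes tested. Only CAVIN2 also passed a log2 fold change of -1, a limit passed together with the adjusted p by 0.644% of genes on the lower side and 1.28% on the higher side. Both sgATG9A libraries lay below both sgGAL4 libraries for the 5 called genes, a separation seen in 27.5% of genes, and above them for EHD4 alone, a separation seen in 27.8%.

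**Figure D1:**
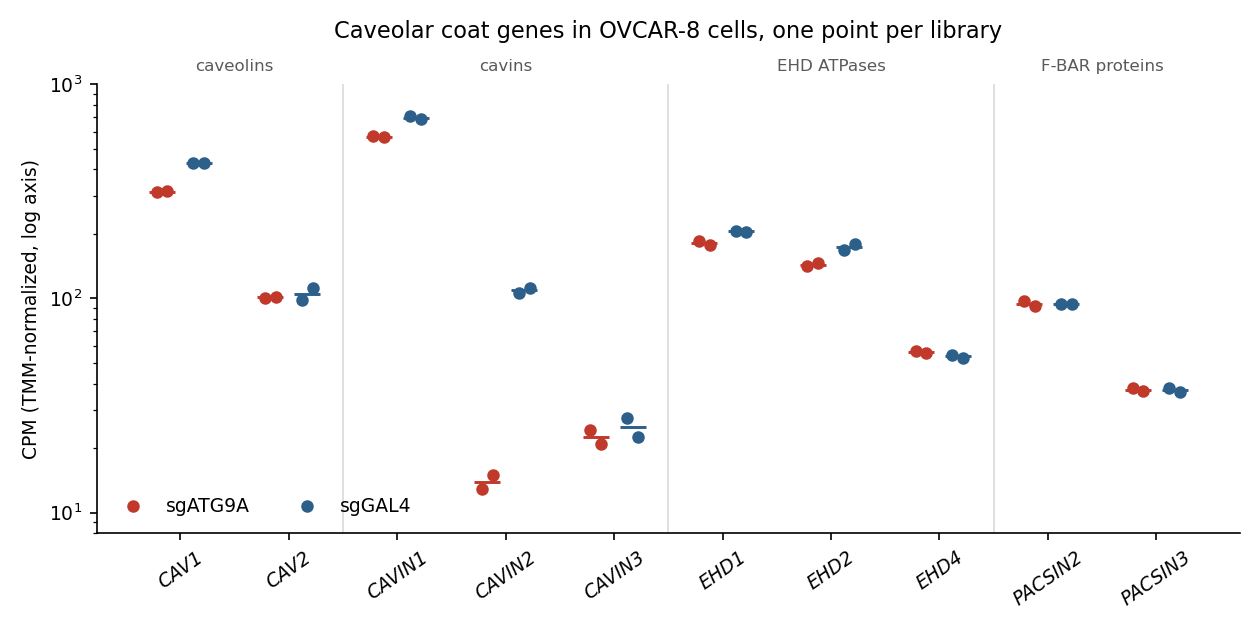
Level of each coat gene in CPM on a log axis, with 1 point per library, sgATG9A in red and sgGAL4 in blue, and a line at the mean of 2 libraries. The CAVIN2 points stand at 12.9 and 14.9 CPM in sgATG9A cells and at 106 and 112 CPM in sgGAL4 cells, while the points of the other 9 genes lie closer together.

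CAVIN2 differed most of the coat genes. It encodes a phosphatidylserine-binding cavin, also known as SDPR, that joins CAVIN1 in the coat and shapes the membrane. CAVIN2 (ENSG00000168497, minus strand of chromosome 2, 191834302 to 191847255 of GRCh38) had 293 and 340 counts in the sgATG9A libraries, against 2369 and 2542 in the sgGAL4 libraries. In CPM these were 12.9 and 14.9 in sgATG9A cells and 106 and 112 in sgGAL4 cells. Both sgATG9A libraries were far below both sgGAL4 libraries, and the gap was much larger than the spread within either group. CAVIN2 RNA was 7.80-fold lower in sgATG9A cells, a log2 fold change of -2.96 (SE 0.07, 95% interval -3.11 to -2.81, adjusted p = 9.79e-19 from edgeR), which ranked 9 from the lowest of all genes tested. In either direction, 50 genes (0.310%) had a larger fold change. An antisense gene, AC098617.1, shares 7.22% of the exon bases of CAVIN2 and had 15 counts over the 4 libraries together. Reads that met exons of both genes were counted for neither, so these 15 counts do not show the overlap to be harmless. The level of CAVIN2 may be too low for this reason.

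CAVIN1, also called PTRF, is the cavin without which caveolae do not form. It had the highest level of the coat genes, also per length, with 572 and 566 CPM in the sgATG9A libraries, against 708 and 684 CPM in the sgGAL4 libraries. The groups were separate, and CAVIN1 (ENSG00000177469, minus strand of chromosome 17, 42402452 to 42423517) was 18.3% lower in sgATG9A cells (log2 fold change -0.29, SE 0.05, 95% interval -0.38 to -0.20, adjusted p = 5.73e-05 from edgeR). CAVIN3, a cavin that binds protein kinase C delta, had 24.3 and 20.8 CPM in the sgATG9A libraries, against 27.7 and 22.6 CPM in the sgGAL4 libraries. These ranges overlap, and CAVIN3 (ENSG00000170955, minus strand of chromosome 11, 6318946 to 6320647) was not called (log2 fold change -0.15, 95% interval -0.36 to 0.05, adjusted p = 0.337 from edgeR). Its interval is the widest of the 10, and 33.3% of its exon bases are shared with AC068733.3 on the other strand, which had 0 counts. Reads that met exons of several genes were counted for none, so the 0 counts of AC068733.3 do not show this overlap to be harmless. The level of CAVIN3 may be too low, and so may its CPM per kb, its ratios and the cavin sums. The interval of CAVIN2 does not meet that of CAVIN1 or CAVIN3, whereas those of CAVIN1 and CAVIN3 overlap.

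CAV1 encodes the structural caveolin of non-muscle cells. The gene (ENSG00000105974, plus strand of chromosome 7, 116524785 to 116561184) had 312 and 316 CPM in the sgATG9A libraries, against 427 and 429 CPM in the sgGAL4 libraries. Libraries of a group lay within a few CPM of each other, and CAV1 was 26.7% lower in sgATG9A cells (log2 fold change -0.45, SE 0.05, 95% interval -0.55 to -0.35, adjusted p = 3.24e-07 from edgeR). CAV2 encodes a caveolin that needs CAV1 to leave the Golgi and forms mixed oligomers with it. CAV2 (ENSG00000105971, plus strand of chromosome 7, 116287380 to 116508541) had 100.6 and 101.5 CPM in the sgATG9A libraries, against 98.6 and 111.9 CPM in the sgGAL4 libraries. Both sgATG9A values fell within the range of the sgGAL4 libraries, and CAV2 was not called (log2 fold change -0.06, 95% interval -0.18 to 0.06, adjusted p = 0.554 from edgeR). The interval of CAV2 does not reach that of CAV1, although CAV2 ends 16244 bases before CAV1 begins.

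EHD2 forms the ATPase ring at the neck that holds caveolae at the cell surface. It had 141 and 146 CPM in the sgATG9A libraries, against 168 and 179 CPM in the sgGAL4 libraries. EHD2 (ENSG00000024422, plus strand of chromosome 19, 47713343 to 47743134) was 17.2% lower in sgATG9A cells, with separate groups (log2 fold change -0.27, SE 0.05, 95% interval -0.38 to -0.16, adjusted p = 0.000918 from edgeR). EHD1, known for recycling from endosomes, had 186 and 177 CPM in the sgATG9A libraries, against 207 and 204 CPM in the sgGAL4 libraries. EHD1 (ENSG00000110047, minus strand of chromosome 11, 64851642 to 64888296) was called 11.8% lower (log2 fold change -0.18, SE 0.05, 95% interval -0.29 to -0.07, adjusted p = 0.0194 from edgeR). This was the weakest of the 5 calls, and it was lost without sgATG9A replicate 2 (adjusted p = 0.234 from edgeR), without sgGAL4 replicate 1 (adjusted p = 0.0759 from edgeR) and with no filter on low counts (adjusted p = 0.119 from edgeR). EHD4, a relative of EHD1 on endosomes, had 56.7 and 55.8 CPM in the sgATG9A libraries, against 54.5 and 52.8 CPM in the sgGAL4 libraries. Its groups were separate with sgATG9A above, but EHD4 (ENSG00000103966, minus strand of chromosome 15, 41895939 to 41972578) was not called (log2 fold change 0.07, 95% interval -0.06 to 0.19, adjusted p = 0.510 from edgeR). EHD4 shares 6.44% of its exon bases with AC020659.1 on the other strand, so its level may be too low.

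Neither PACSIN gene was called. PACSIN2, the broadly expressed F-BAR gene of the family that acts at caveolae, had 97.5 and 91.6 CPM in the sgATG9A libraries, against 94.3 and 94.3 CPM in the sgGAL4 libraries. For PACSIN2 (ENSG00000100266, minus strand of chromosome 22, 42835412 to 43015145) the log2 fold change was 0.004, with a 95% interval of -0.10 to 0.11 (adjusted p = 0.972 from edgeR). PACSIN2 shares 3.40% of its exon bases with ARFGAP3, an expressed gene on the same strand with 6774 counts over the 4 libraries. PACSIN3, known from muscle, had 38.1 and 36.9 CPM in the sgATG9A libraries, against 38.3 and 36.4 CPM in the sgGAL4 libraries. For PACSIN3 (ENSG00000165912, minus strand of chromosome 11, 47177525 to 47186443) the log2 fold change was 0.006, with a 95% interval of -0.14 to 0.15 (adjusted p = 0.968 from edgeR). A log2 fold change of -0.18, the value fitted for EHD1, lies inside the interval of CAVIN3 and outside those of PACSIN2, PACSIN3 and EHD4. For CAV2 it lies at the lower edge of the interval, with -0.181 for EHD1 beside a CAV2 limit of -0.177.

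**Figure D2:**
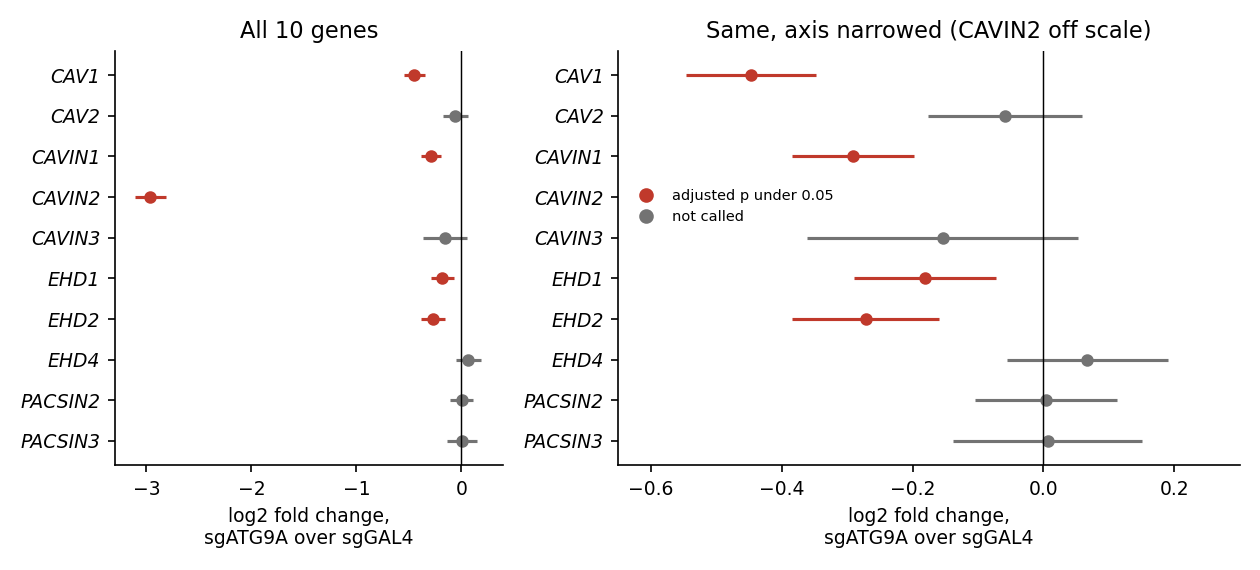
Log2 fold change of sgATG9A over sgGAL4 with its 95% interval for each coat gene, on an axis that holds CAVIN2 at left and on a narrower axis at right, with red for an adjusted p under 0.05. CAV1, CAVIN1, CAVIN2, EHD1 and EHD2 lie below 0 with intervals that do not reach it, and the intervals of CAV2, CAVIN3, EHD4, PACSIN2 and PACSIN3 cross 0.

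Per length, the order of the coat genes differed between the groups at 1 gene in particular. Levels were divided by the exon length of each gene (CPM per kb), which compares genes only if counts grow with length. The study's methods describe paired-end reads and its sample labels a kit that reads transcript ends, so this scale is uncertain between genes, though not for 1 gene between groups. In sgATG9A cells CAVIN1 stood highest at 148.7 CPM per kb, followed by CAV1 at 76.9, EHD2 at 36.6, EHD1 at 25.5, PACSIN2 at 20.8, CAV2 at 14.6, PACSIN3 at 13.6, CAVIN3 at 13.5, EHD4 at 7.14 and CAVIN2 at 4.32 CPM per kb. In that order PACSIN3 and CAVIN3 overlapped between libraries, and the other neighbours were separate. In sgGAL4 cells the order by mean CPM per kb was CAVIN1 at 182, CAV1 at 105, EHD2 at 44.1, CAVIN2 at 33.7, EHD1 at 28.9, PACSIN2 at 20.7, CAV2 at 15.2, CAVIN3 at 15.0, PACSIN3 at 13.6 and EHD4 at 6.81. There CAV2 with CAVIN3, and CAVIN3 with PACSIN3, overlapped. Each gene was divided by its full exon length, with bases shared with other genes included. Genes with such bases, CAVIN3 most of all, may therefore stand too low in either order. CAVIN2 thus stood in place 10 of 10 in sgATG9A cells and in place 4 in sgGAL4 cells, and no other coat gene moved by more than 2 places.

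The ratio of cavin to caveolin RNA asks whether the pools of the coat kept their proportion. Summed per kb, cavins over caveolins came to 1.85 and 1.79 in the sgATG9A libraries, against 1.97 and 1.87 in the sgGAL4 libraries. The mean log2 difference was -0.08 per kb (pooled SD 0.0445) and -0.09 when counts were summed without regard to length (pooled SD 0.0453). The groups did not overlap, but per kb the gap between the nearest libraries of the groups was smaller than the distance between libraries within either group. CAVIN1 per CAV1 was higher, at 1.95 and 1.91 in the sgATG9A libraries, against 1.77 and 1.70 in the sgGAL4 libraries (log2 difference 0.16). The 2 coat genes highest per length were both called lower in sgATG9A cells, CAV1 by more than CAVIN1, though their 95% intervals overlap.

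Within the coat, the ratios that differed most between the groups were those with CAVIN2. CAVIN2 per CAV1 stood at 0.0524 and 0.0598 in the sgATG9A libraries, against 0.313 and 0.329 in the sgGAL4 libraries (log2 difference -2.52, pooled SD 0.101, per kb). CAVIN2 per CAVIN1 stood at 0.0268 and 0.0313 in the sgATG9A libraries, against 0.177 and 0.194 in the sgGAL4 libraries (log2 difference -2.68, pooled SD 0.129). Put as a share, CAVIN2 made up 2.39% and 2.80% of cavin RNA per kb in the sgATG9A libraries, against 14.0% and 15.3% in the sgGAL4 libraries. Without regard to length the share was 2.12% and 2.48% in the sgATG9A libraries, against 12.6% and 13.7% in the sgGAL4 libraries. CAVIN1 made up most of the cavin RNA per kb in every library. CAV2 per CAV1 was 0.190 and 0.189 in the sgATG9A libraries, against 0.136 and 0.154 in the sgGAL4 libraries (log2 difference 0.39, pooled SD 0.0871, per kb). Without regard to length it was 0.322 and 0.321 in the sgATG9A libraries, against 0.231 and 0.261 in the sgGAL4 libraries, with the same log2 difference. CAVIN3 per CAV1 was 0.190 and 0.161 in the sgATG9A libraries, against 0.158 and 0.129 in the sgGAL4 libraries, with groups set apart by less than the spread within either (log2 difference 0.30, pooled SD 0.193). CAVIN3 per CAVIN1 overlapped between the groups (log2 difference 0.14). Two-sided exact permutation tests of the 7 ratios, with 6 splits of 2 against 2 libraries, cannot go below p = 0.333, so none could pass a threshold, and the exact p was 0.333 for 6 ratios and 0.667 for CAVIN3 per CAVIN1 (Benjamini-Hochberg 0.389 and 0.667).

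**Figure D3:**
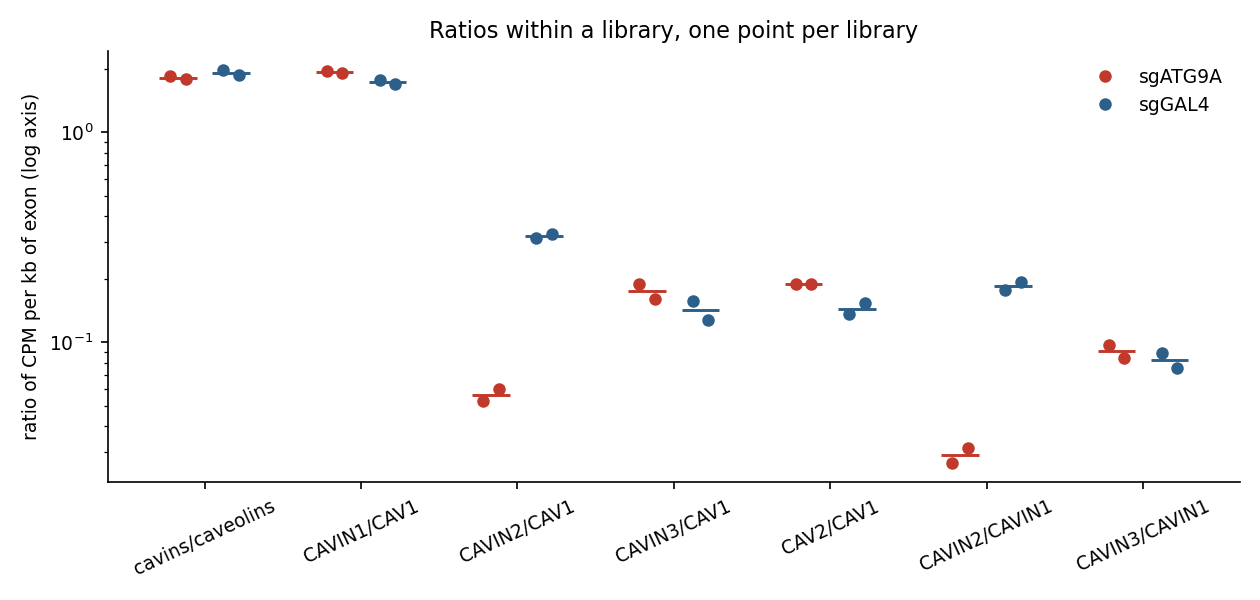
Ratios of coat genes within each library, in CPM per kb of exon on a log axis, with 1 point per library, sgATG9A in red and sgGAL4 in blue, and a line at the group mean. CAVIN2 over CAV1 lies at 0.0524 and 0.0598 in sgATG9A cells and at 0.313 and 0.329 in sgGAL4 cells, while cavins over caveolins lies between 1.79 and 1.97 in all 4 libraries.

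The relatives of the coat genes that belong to other tissues were scarce. CAV3, the caveolin of muscle, had 0 and 3 counts in the sgATG9A libraries, against 1 and 3 in the sgGAL4 libraries. CAVIN4, the cavin of muscle, had 48 and 35 counts in the sgATG9A libraries, against 33 and 32 in the sgGAL4 libraries. EHD3 had 106 and 77 counts in the sgATG9A libraries, against 90 and 103 in the sgGAL4 libraries, and PACSIN1, the neuronal F-BAR gene, had 5 and 5 in the sgATG9A libraries, against 6 and 10 in the sgGAL4 libraries. CAV3 and PACSIN1 did not pass the filter, and CAVIN4 and EHD3 were not called (adjusted p = 0.491 and 0.836 from edgeR). No relative exceeded 106 counts in a library.

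Neighbouring genes on the chromosomes were looked up after the values of the coat genes were seen, and their values are a description. Their calls are read beside 7.42% of genes lower and 8.93% higher over all genes tested. NABP1, which encodes a single-stranded DNA-binding protein and lies 137643 bases from CAVIN2, had 70.0 and 69.4 CPM in the sgATG9A libraries, against 57.0 and 55.2 CPM in the sgGAL4 libraries, and was called higher (log2 fold change 0.31, SE 0.06, adjusted p = 0.000366 from edgeR). TMEFF2 on the other side of CAVIN2 stayed below 1 CPM in every library and was not called, and SLC39A10, 3728722 bases away on that side, was called lower (log2 fold change -0.21, SE 0.06, adjusted p = 0.0187 from edgeR). TES, a focal adhesion gene that lies 28597 bases from CAV2, had 39.1 and 41.7 CPM in the sgATG9A libraries, against 30.5 and 30.2 CPM in the sgGAL4 libraries, and was called higher (log2 fold change 0.41, SE 0.07, adjusted p = 0.000224 from edgeR). MET, the hepatocyte growth factor receptor gene beyond CAV1, had a log2 fold change of 0.14 and was not called (adjusted p = 0.0558 from edgeR). Along this stretch of chromosome 7, CAV1 was the single called gene on the lower side among TES, CAV2, CAV1, MET and CAPZA2. Beside CAVIN1, STAT3 and STAT5A were called higher (log2 fold changes 0.18 and 0.48, adjusted p = 0.0188 and 0.00614 from edgeR), and ATP6V0A1 and NAGLU were not called.

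**Figure D4:**
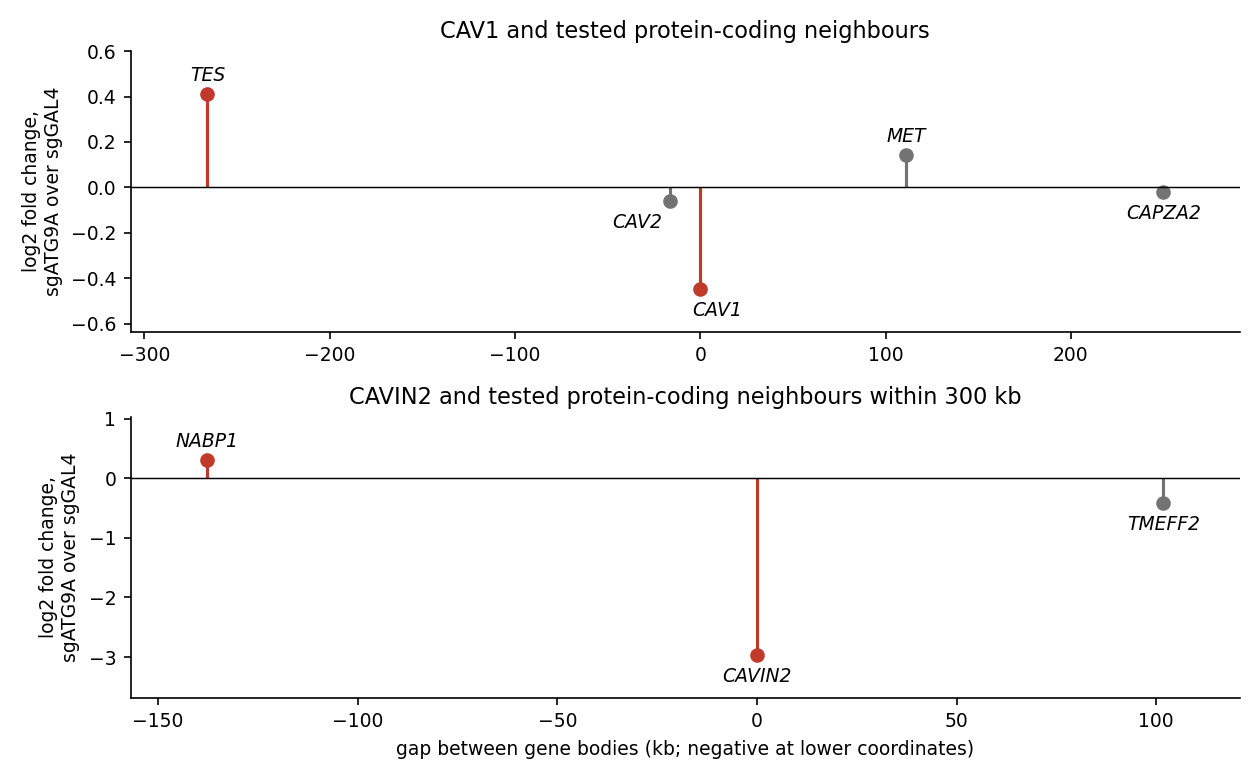
Log2 fold change of sgATG9A over sgGAL4 for CAV1 and CAVIN2 and for tested protein-coding genes around them (within 300 kb for CAVIN2), against the gap between gene bodies in kb, with red for an adjusted p under 0.05. TES stands at 0.41 and NABP1 at 0.31, above 0, where CAV1 stands at -0.45 and CAVIN2 at -2.96.

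The genes whose pattern over the 4 libraries lay nearest to that of CAVIN2 included ITGB4, PRAG1, PPME1 and SOX9. Likeness was the Euclidean distance of log2 CPM centred on the mean of each gene, over the 10130 genes tested whose log2 CPM averaged 3 or more. ITGB4, the integrin chain of hemidesmosomes, was nearest at a distance of 0.552, with 6.85 and 8.39 CPM in the sgATG9A libraries, against 41.1 and 40.3 CPM in the sgGAL4 libraries. PRAG1, a pseudokinase gene, followed at 0.750, with 5.43 and 6.06 CPM in the sgATG9A libraries, against 25.8 and 27.6 CPM in the sgGAL4 libraries. PPME1 and SOX9 lay at distances of 1.28 and 1.46, and none of the other coat genes was among the 5 nearest. With 2 groups of 2 libraries this measure mostly orders genes by how close their fold change comes to that of CAVIN2.

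Genes whose products work with the coat were read beside it. Of 20 caveolar partners (kinases, receptors, actin linkers and other proteins linked to caveolae), 19 were tested, 5 were called lower and 1 higher, beside 7.42% lower and 8.93% higher over all genes tested, with a median log2 fold change of -0.02. PRKCA, the protein kinase C alpha gene whose product binds CAVIN2, had 75.2 and 75.0 CPM in the sgATG9A libraries, against 129 and 134 CPM in the sgGAL4 libraries, and was called lower (log2 fold change -0.81, SE 0.05, adjusted p = 3.90e-11 from edgeR). FLNA, the filamin that ties caveolae to actin, was called lower (log2 fold change -0.17), as were the receptor gene IGF1R (-0.27) and the kinase gene FYN (-0.33). ITGB1, the beta-1 integrin gene, was called higher (log2 fold change 0.29, adjusted p = 2.93e-05 from edgeR). DNM2, the dynamin that cuts the neck, had 219 and 214 CPM in the sgATG9A libraries, against 233 and 225 CPM in the sgGAL4 libraries, and was not called (adjusted p = 0.313 from edgeR).

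Scaffolds of flat lipid rafts gave mixed values, read beside 7.42% of genes lower and 8.93% higher over all genes tested. Of 5 genes, FLOT1 and FLOT2, the flotillins, were called lower (log2 fold changes -0.20 and -0.26, adjusted p = 0.00603 and 0.00194 from edgeR) and ERLIN1 higher (0.17, adjusted p = 0.0235 from edgeR). The call of ERLIN1 was lost when any 1 of the 4 libraries was left out. Without either sgATG9A replicate fewer of these genes were called lower, as was a smaller share of all genes. Of 10 partners of EHD and PACSIN proteins in recycling, only EHBP1, which links EHD proteins to actin, was called (log2 fold change -0.23, adjusted p = 0.0257 from edgeR), and not without sgATG9A replicate 1 or without sgGAL4 replicate 1. The count of recycling partners called is near the share over all genes tested. DESeq2 called neither ERLIN1 nor EHBP1. With no filter on low counts 0 genes of these 2 lists were called, where 1.13% of all genes were lower and 1.78% higher.

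The clathrin coat, which serves another main route of endocytosis, was read beside the caveolar coat. Of its 28 genes, 7 were called lower and 3 higher, with a median log2 fold change of -0.03. Over all genes tested 7.42% were lower and 8.93% higher, so the higher count is near the background. BIN1 and EPN1, which bend the membrane, were called lower (log2 fold changes -0.33 and -0.19), and ITSN2 and NECAP1, an endocytic scaffold and an AP-2 cofactor, higher (0.34 and 0.33). The heavy chain CLTC had 717 and 832 CPM in the sgATG9A libraries, against 741 and 776 CPM in the sgGAL4 libraries, with overlapping groups. Fewer clathrin genes were called lower with any library left out, and fewer were called higher except without sgGAL4 replicate 2. The shares of all genes called lower and higher fell in each of these fits too, so the drop is not particular to clathrin genes. No clathrin gene had a log2 fold change near that of CAVIN2, and the difference between the 2 lists was not tested.

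CAV1 and other coat genes have been described as targets of YAP and TEAD, so 22 common targets of these factors were read beside them. Of these, 11 were called lower and 7 higher, beside 7.42% and 8.93% of all genes tested, with a median log2 fold change of -0.22. TGFB2, a TGF-beta ligand gene, had 3.62 and 2.94 CPM in the sgATG9A libraries, against 10.3 and 11.4 CPM in the sgGAL4 libraries (log2 fold change -1.72, SE 0.15, adjusted p = 1.67e-08 from edgeR). MYOF, a ferlin gene of membrane repair, was also called lower (log2 fold change -0.57), whereas GADD45A and F3 were called higher (0.83 and 0.47). CCN2, a target often used as a readout, had 187 and 202 CPM in the sgATG9A libraries, against 174 and 190 CPM in the sgGAL4 libraries. It was not called (adjusted p = 0.283 from edgeR). ANKRD1 of the same list was called lower (log2 fold change -0.53, adjusted p = 5.04e-07 from edgeR) and CCN1 higher (0.18, adjusted p = 0.00329 from edgeR). The list had calls on both sides and no single direction.

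**Figure D5:**
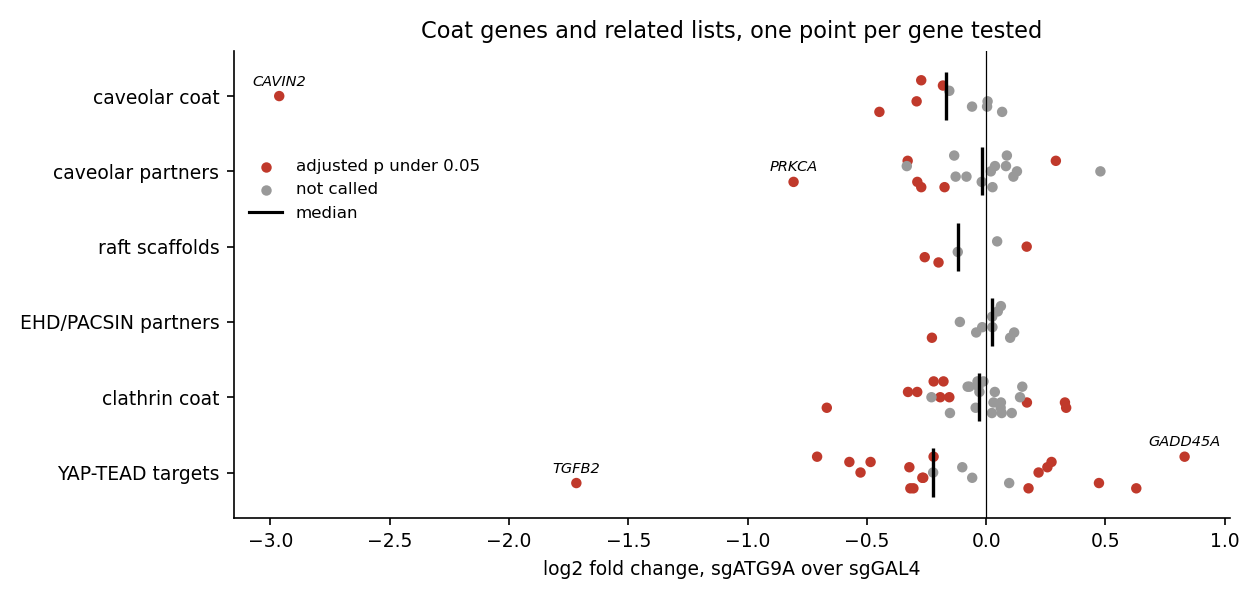
Log2 fold change of sgATG9A over sgGAL4 for each tested gene of the caveolar coat and of 5 related lists, with red for an adjusted p under 0.05 and a black line at the median of each list. The median is -0.17 for the coat genes, -0.03 for clathrin coat genes and -0.22 for YAP-TEAD targets, and the CAVIN2 point at -2.96 lies apart from all others.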

How the data were processed

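RNA of OVCAR-8 cells was sequenced in 2 sgATG9A and 2 sgGAL4 libraries. What the authors deposited are raw counts of reads per gene, from Cutadapt, FastQC, STAR (GRCh38) and featureCounts over exons of GENCODE 28, with unique reads, no strand and no read on more than 1 gene. Paired-end reads and a 3′ kit are both described. Symbols and positions are from GENCODE 29, which held 58261 of the 58381 identifiers, and promoters from RefSeq.

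Counts were filtered with filterByExpr and tested by the quasi-likelihood method of edgeR 4.0.16 under R 4.3.3, on TMM factors, two-sided, with no covariate and Benjamini-Hochberg adjustment over 16141 genes, and ratios in Python 3.11.15 with scipy 1.17.1. The totals of 22200998 to 22969233 counts and 2 libraries per group limit the precision. Scripts were tested on simulated data. Alternatives were DESeq2 1.42.0, RLE size factors, no filter, at least 50 counts in 2 libraries, each library left out, a replicate block and, for ratios, scaling by length.

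The members and lists were chosen with earlier results of these data known. Named are the coat genes, 4 relatives, ATG9A, up to 4 genes of each list by smallest p, and the 5 nearest to CAVIN2, less a few that are not reported here. FYN, FLNA, DNM2, CLTC, CCN1, CCN2, ANKRD1 and the chromosomal neighbours were named after their values were seen. The deposited single-cell tables were not used.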

Additional observations from a re-analysis of the deposited data

How the results depend on the processing

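CAV1, CAVIN1, CAVIN2 and EHD2 were called lower in edgeR and DESeq2 and under every alternative run, and 0 coat genes were higher in any. With each library left out in turn, the log2 fold change of CAVIN2 ran between -3.07 and -2.86. EHD1 lost its call with no filter on low counts (-0.1814). That setting also raised the adjusted p of CAVIN1, from 5.73e-05 to 0.0116 in edgeR, and the reason was not tested. EHD1 ran between -0.2179 and -0.1434 with each library left out. Uncalled genes near 0 changed sign. With at least 50 counts in 2 libraries, PACSIN2 stood at -0.0025 and PACSIN3 at -0.0004, and with each library left out CAV2 ran from -0.1501 to 0.0368, PACSIN2 from -0.0403 to 0.0486 and PACSIN3 from -0.0291 to 0.0407. Over the other 6 lists, 38 genes were called, 18 with no filter and 25 to 32 with each library left out. The genes tested in these lists were 2 relatives, 19 caveolar partners, 5 raft scaffolds, 10 recycling partners, 28 clathrin genes and 22 YAP-TEAD targets. Of all genes tested, 7.42% were lower and 8.93% higher, against 1.13% and 1.78% with no filter. Both shares of all genes also fell with each library left out. The lists were not tested against these shares. Clathrin genes called lower numbered 2 in DESeq2 and 0 with no filter, against 7.

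Over all genes, edgeR called 1198 lower and 1441 higher of 16141, DESeq2 594 and 856 of 14362, and edgeR with no filter 365 and 578 of 32430. Whether libraries with the same number share a preparation is not stated. Their deviations correlated at 0.0496 over all genes and 0.1498 over well-expressed ones, values that cannot settle whether a preparation was shared. With the replicate block, 1558 genes were lower and 1840 higher, and the same 5 coat genes were called. Precision is limited by 2 libraries per group, and levels between genes also by 3′ or whole-transcript reads being unsettled.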
